A study of Rubus occidentalis with 14 samples.

Results

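A group of 100 black raspberry genes was at its lowest in fruit of stage 2 and stood higher both before and after it. The genes were chosen on their stage means from a deposited table of normalised counts. A gene qualified when its means in stages 1, 3, 4 and 5 were each at least 100 normalised counts, which held for 9406 of the 33253 genes. Its score was the log2 distance, after adding 10 to each mean, from its lowest mean among those 4 stages down to its stage 2 mean. The 100 highest scores above 0.3 were taken, out of 588 genes past 0.3. The scores come from the same libraries as the levels below, so every level at stage 2 is a description and carries no weight as evidence.

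Whole fruit of Rubus occidentalis, advanced selection NC 349, field-grown at a research station, was sequenced from poly(A) RNA at 5 stages that the labels number 1 to 5, with no treatment and no age in days. There were 3 libraries per stage, except for 2 at stage 4. The labels call them biological replicates and do not say which plants or fruits went into each, so the p-values measure variation among 14 libraries that may be partly technical. In stages 1, 2, 3 and 5 the titles of replicates 2 and 3 open with the same code, which the labels do not explain. The library name of stage 2 replicate 1 alone opens with the letter t.

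Black raspberry is an aggregate fruit, in which each drupelet holds a seed inside a hard endocarp surrounded by flesh and skin. As the fruit ripens it loses chlorophyll, softens, takes up sugars and builds up anthocyanin pigments. Transcripts of photosynthesis usually decline over that course, while those for pigments and wall loosening tend to rise. A fall followed by a return is a different course from either. The table pairs no names with its gene identifiers and no annotation was used here, so no function is given to any gene below and no pathway list could be read. In bulk RNA of whole fruit, fewer cells of a type and less RNA per cell cannot be told apart.

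Libraries held 7576338 to 39938265 reads. In the stage 2 libraries the member with the fewest reads had 11, 16 and 24 reads in replicates 1, 2 and 3, and the median member had 189.5, 115 and 343. Stage 2 replicate 2 stood apart from the other stage 2 libraries, with a Pearson r over genes that averaged 0.932 to the stage 3 libraries, against 0.895 and 0.897 for replicates 1 and 3. Genes are not independent replicates, and these correlations describe the libraries only.

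The median of the members' stage means went from 605 normalised counts at stage 1 down to 132 at stage 2, then to 566, 950.2 and 1212 in stages 3, 4 and 5. The lowest of the other 4 stage means was 2.13 to 9.21 times the stage 2 mean, with a median of 3.11 times. In 41 members the stage 2 mean was below 100 normalised counts. Stage 1 was the lowest of the other 4 stages in 53 members, stage 3 in 36, stage 5 in 7 and stage 4 in 4. The highest mean fell in stage 5 for 51 members, in stage 4 for 24, in stage 1 for 21 and in stage 3 for 4. Stage 5 means exceeded stage 1 means in 72 members, and the share among other genes was not counted.

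**Figure D1:**
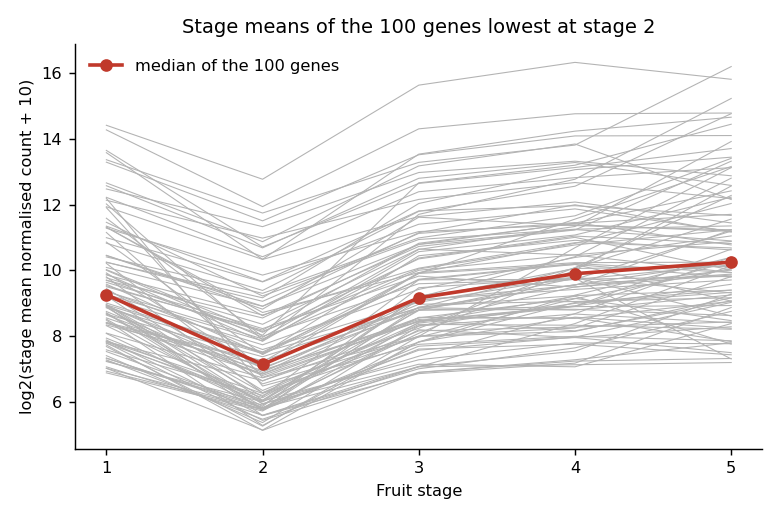
Stage means of the 100 genes as log2(mean normalised count + 10) on the vertical axis against fruit stage, 1 grey line per gene, with the median of the genes in red. All lines reach their lowest point at stage 2, which the choice of genes fixed, and the median stage mean was 132 normalised counts there against 605 in stage 1 and 1212 in stage 5.

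The deepest dip belonged to Ro01_G00902, with a score of 3.19. Its normalised counts were 8911, 16763 and 10939 in stage 1 and 679.9, 2311 and 866 in stage 2 (replicates in order). They were 9785, 17438 and 8289.8 in stage 3, 20042 and 18363 in stage 4 and 25004, 27045 and 25227 in stage 5. All stage 2 libraries lay below all others, and replicate 2 was the highest of the 3 in stages 1, 2, 3 and 5. The log2 change was -3.41 ± 0.39 (SE) into stage 2 and 3.34 ± 0.39 out of it into stage 3. Stage 1 and stage 3 did not differ past the threshold (log2 change -0.07 ± 0.39, limma adjusted p 0.882).

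Next came Ro06_G06152, with a score of 2.71. It stood at 406, 637 and 341 normalised counts in stage 1 and 22.3, 144 and 20.1 in stage 2. Stage 3 held 987, 804 and 706, stage 4 895 and 783 and stage 5 717, 1172 and 797. Its stage 2 replicate 2 was the highest of that stage and still below every library of the other stages. Its means in stages 3, 4 and 5 were 832 ± 142, 839 ± 79.2 and 895 ± 243 (SD, n = 3, 2 and 3), which differed by less than the spread between replicates in stage 5.

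At the other end of the choice, the last members were Ro03_G16018 (score 1.11) and Ro04_G36174 (score 1.08), and the first genes left out were Ro06_G13123 (1.07) and Ro02_G22832 (1.07). Ro03_G16018 had means of 1353 ± 186, 623 ± 64.3 and 2022 ± 602 normalised counts in stages 1, 2 and 3. Ro04_G36174 had 1206 ± 813, 566 ± 585 and 4183 ± 1463, with stage 1 and stage 2 libraries that overlap. Just outside, Ro06_G13123 had 2699 ± 481, 1280.1 ± 228 and 2765 ± 273, and Ro02_G22832 had 1654 ± 359, 784 ± 218 and 3154 ± 646 (SD, n = 3 each). Scores were nearly equal on both sides of the limit.

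The group spanned a wide range of abundance. Ro03_G10602, the most abundant, held 19359.6, 18939.7 and 26898 normalised counts in stage 1 and 3307, 13270.3 and 4349 in stage 2. It reached 38377, 65236 and 48126 in stage 3 and 80878 and 82436 in stage 4, and was at 58114, 60125 and 53412 in stage 5. Ro07_G06860, the next most abundant, differed less between replicates: 9904, 10240.3 and 11419.9 in stage 1, 3258, 3589 and 3415 in stage 2 and 8881, 12086 and 8889 in stage 3. Neither gene had a stage 2 library that reached any library of another stage. The least abundant members by their mean over all libraries were Ro03_G31985, described below, and Ro04_G18641. The latter went from 81.3, 422 and 108 in stage 1 to 15.5, 28.4 and 32.4 in stage 2 and 89.9, 138 and 101 in stage 3. Its stage 1 mean of 204 ± 189 rests largely on replicate 2.

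**Figure D2:**
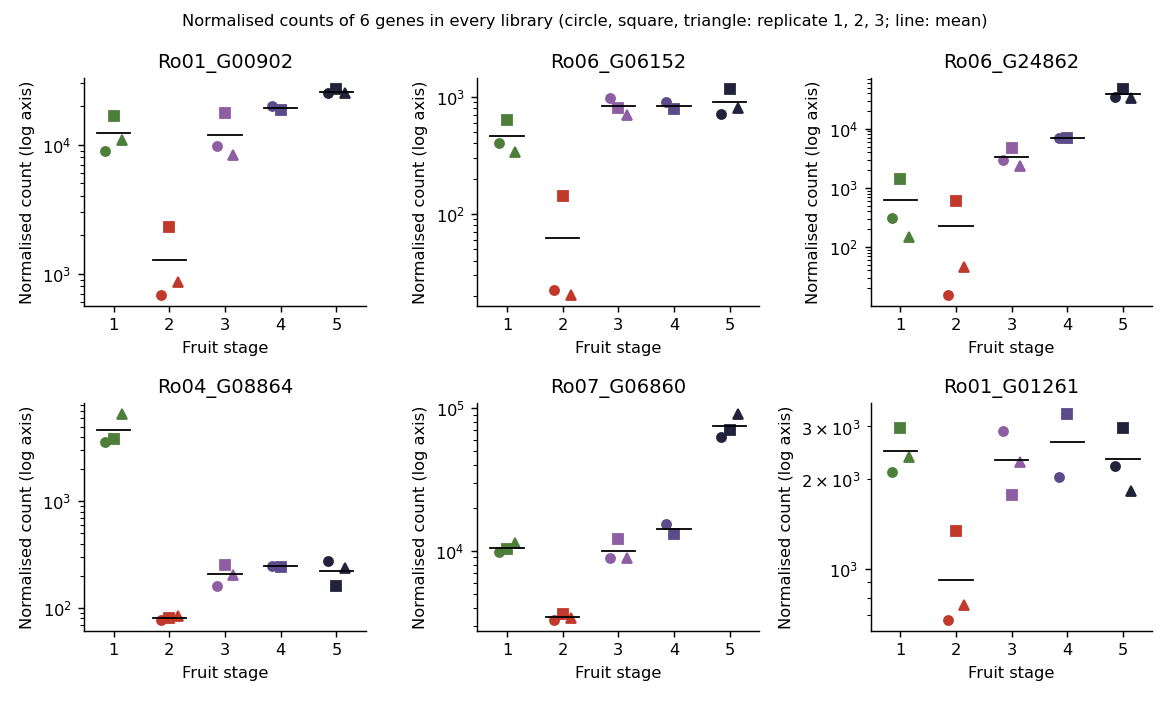
Normalised counts on a log axis for 6 members in each of the 14 libraries, by fruit stage. Circles, squares and triangles are replicates 1, 2 and 3 and lines are stage means. The squares of stage 2 sit above the other stage 2 libraries in Ro01_G00902, Ro06_G06152, Ro06_G24862 and Ro01_G01261, whereas the stage 2 libraries of Ro04_G08864 and Ro07_G06860 lie close together.

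In the limma fit over all 19234 genes that passed the filter (at least 2 libraries at 10 normalised counts), 93 of the 100 members were called lower from stage 1 to stage 2 (adjusted p below 0.05), where 24.3% of all genes tested were. From stage 2 to stage 3, 99 members were called higher, against 23.4% of all genes. The choice of genes used both of these contrasts, so nothing is read from these counts. Every stage 2 library was below every other library in 81 members, and in 3.36% of all genes tested. In the other 19 at least 1 stage 2 library reached a library of another stage. All 100 members passed the filter.

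The share of a library's reads that fell in the 100 genes does not depend on the size factors. It was 1.66%, 1.89% and 1.57% in the stage 1 libraries and 0.244%, 0.511% and 0.281% in the stage 2 libraries. It was 1.01%, 1.26% and 1.05% in stage 3, 1.41% and 1.45% in stage 4, and 1.79%, 1.93% and 1.89% in stage 5. The stage 2 libraries were the lowest of all 14, and replicate 2 had the highest share of its stage in stages 1, 2, 3 and 5. Mean shares were 1.71% ± 0.16 in stage 1 and 1.87% ± 0.07 in stage 5 (SD, n = 3 each). On this measure stage 3 remained below stage 1, at 1.11% ± 0.13.

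**Figure D3:**
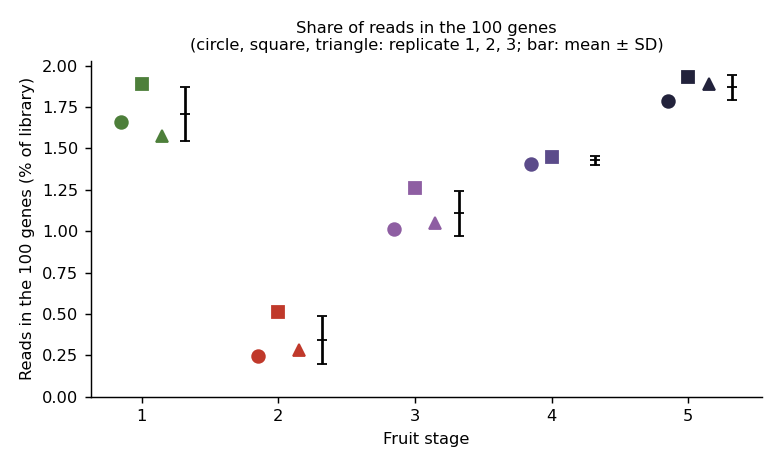
Percent of each library's reads that fell in the 100 genes, by fruit stage. Circles, squares and triangles are replicates 1, 2 and 3, and the bars give the mean ± SD of each stage. Stage 2 libraries lie between 0.244% and 0.511%, and those of the other stages between 1.01% and 1.93%.

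Stage 2 replicate 2 showed the dip least. It was the highest of the 3 stage 2 libraries in 87 of 100 members, replicate 3 in 13 and replicate 1 in none, whereas replicate 2 was highest in 41.8% of the other qualifying genes. The median member lay 2.14 below its lowest other stage mean on the log2 scale in replicate 1, 1.85 in replicate 3 and 1.04 in replicate 2. Reading only libraries of the same replicate number, stage 2 was the lowest in 100 members for replicate 1, 96 for replicate 2 and 99 for replicate 3. Replicate number 3 has no stage 4 library. The choice of genes used these same values and the share among other genes was not counted, so these counts are a description only. Replicate 2, with the shallowest dip, also had the highest mean r to stage 3 and the lowest to stage 1 (0.783, against 0.799 and 0.814 for replicates 1 and 3). It had the fewest reads of its stage as well. In 1 library these cannot be told apart, and their part in the shallower dip was not tested.

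A check that the choice of genes fixed only in part was to leave 1 stage 2 library out, choose 100 genes again from the others, and read them in the library left out. The means of stages 1, 3, 4 and 5 stayed in the choice and in each distance, so that side of the distance was chosen to be high. Replicates 2 and 3 share a title code, so leaving 1 of them out may keep related material in the choice. Read in replicate 1, the genes chosen without it lay a median of 2.01 below their lowest other stage mean on the log2 scale, and 98 of 100 passed 0.3. In replicate 3 the median was 1.74 and 100 of 100 passed. In replicate 2 the median was 0.93, with 75 of 100 past 0.3 and 84 below the lowest other stage mean at all. Of the qualifying genes that the same choice had passed over, 8.75%, 4.43% and 6.93% passed 0.3 in replicates 1, 2 and 3. These genes were what remained once the deepest dips were taken, so the choice itself set part of their lower share. Of the 100 members, 81 were chosen again without replicate 2, 86 without replicate 1 and 92 without replicate 3.

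**Figure D4:**
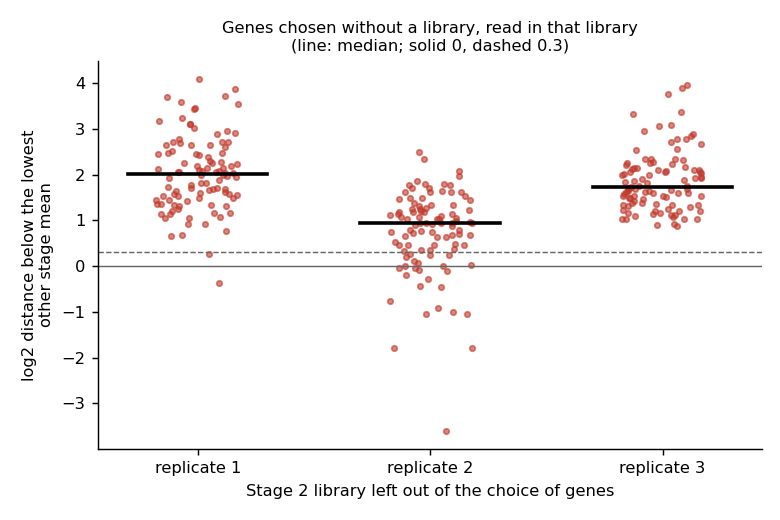
Log2 distance from a stage 2 library down from the lowest other stage mean (vertical axis, higher means a deeper dip) for the 100 genes chosen without that library, 1 point per gene, with the median as a line. Medians were 2.01, 0.93 and 1.74 for replicates 1, 2 and 3, and some points of replicate 2 fall below 0.

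Members varied more between replicates than the other qualifying genes did, in stage 2 and in each of the other stages. The comparison was not matched for level. The median SD of log2(normalised count + 1) within a stage was 0.48, 0.61, 0.35, 0.16 and 0.30 over the members in stages 1 to 5. Over the 9306 other qualifying genes it was 0.18, 0.15, 0.17, 0.10 and 0.19. The spread of a member exceeded the median of those genes in 91, 95, 83, 70 and 75 of the 100 members in stages 1 to 5. Replicate 2 was the highest library for 52 members in stage 1, 63 in stage 3 and 60 in stage 5, against 25.1%, 39.7% and 39.1% of the other qualifying genes. In stages 1, 2, 3 and 5 replicate 2 was also the library with the fewest reads of its stage. The part of depth, or of how fruits were sampled, in this spread was not tested.

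Whether the genes came back to where they began was read from stage 1 against stage 3, a contrast without stage 2. The spread of each gene in that test still came from all 14 libraries, stage 2 included. Of the 100 members, 21 were higher in stage 3, 21 were lower and 58 did not pass the test. Among all genes tested 30.2% were called higher and 40.9% lower, and among the other qualifying genes 48.3% and 20.8%. Leaving out 1 library moved the rises to 12 (without stage 1 replicate 3), 13 (without stage 3 replicate 2) or 33 (without stage 2 replicate 2), with 19, 20 and 22 falls. Calls over all genes, rises and falls together, were then 12664, 12853 and 13564. With only the libraries of stages 1 and 3 in the fit, 30 members were higher and 21 lower, out of 13196 calls over all genes. The median log2 change was 0.26 over the members, from -4.46 to 3.02, against -0.23 over all genes tested and 0.33 over the other qualifying genes. Under quantile normalization the members' median was -0.02, below the 0.06 of all genes. The stage 3 mean was between 0.67 and 1.80 times the stage 1 mean in the members between the quartiles. With equal total reads per library in place of the deposited scaling, the split was 3 higher and 47 lower, out of 15162 calls over all genes. That scaling moved the median of all genes from -0.23 to -1.08 and that of the members from 0.26 to -0.60, so the direction of return is relative to the scaling. A term for the opening letters of the title codes, which set stage 3 replicates 2 and 3 and stage 4 replicate 2 apart from the rest, left 26 calls, 8 higher and 18 lower. With that term 11954 genes were called in all.

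Among the members that overshot, Ro06_G24862 rose the most from stage 1 to stage 3. It stood at 302, 1385 and 145 normalised counts in stage 1, 15.02, 607 and 46.2 in stage 2 and 2988, 4659.7 and 2332 in stage 3. The stage 3 libraries lay above all of stage 1, although stages 1 and 2 overlapped, stage 2 replicate 2 lying above stage 1 replicates 1 and 3. The log2 change was 3.02 ± 1.03 (SE, adjusted p 0.0187). It was no longer called without stage 1 replicate 1 (2.83, adjusted p 0.0538), stage 1 replicate 3 (2.30, 0.0884) or stage 3 replicate 2 (2.74, 0.0601). Nor was it called with equal total reads (2.16, 0.0648) or with the title code letters as a term (2.95, 0.0769). Ro07_G16480 rose from 535, 880.3 and 1068 to 4424, 10190.5 and 4792 (log2 change 2.91 ± 0.62, adjusted p 0.0009), after 66.1, 599.9 and 90.8 in stage 2.

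The members that stayed low were led by Ro04_G08864, which held 3556, 3838 and 6602 normalised counts in stage 1 and 76.4, 80.2 and 83.5 in stage 2. It then held 161, 254 and 205 in stage 3, 249 and 243 in stage 4 and 273, 160.3 and 236 in stage 5. The stage 3 level was above all of stage 2 and far below stage 1 (stage 1 to stage 3, -4.46 ± 0.25, adjusted p 1.04e-08), so most of its course was a fall from stage 1 with a small rebound. Ro04_G25619 also stayed low at stage 3, with 1979.7, 3499 and 6017 in stage 1, 73.4, 147 and 73.6 in stage 2 and 293, 369 and 377 in stage 3. Its log2 change from stage 1 to stage 3 was -3.33 ± 0.39 (adjusted p 5.45e-06). Its means then were 476 ± 4.69 in stage 4 (SD, n = 2) and 756 ± 353 in stage 5 (SD, n = 3). A ratio of stage 3 to stage 1 means below 0.5 was found in 18 members and one above 2 in 18 others. The share of other genes past these ratios was not counted.

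Between stage 3 and stage 4 limma called 0 members, and 0.0156% of all genes tested. The edgeR quasi-likelihood test called 0 members as well, and DESeq2 called 6, all higher, out of 315 calls among the 19234 genes. Stage means were higher in stage 4 in 93 of 100 members on the log2 scale. The median log2 change was 0.49, against 0 over all genes and 0.07 over the other qualifying genes. Under equal total reads 79 members were higher and their median was 0.26, with a median of -0.21 over all genes. The share of all genes higher in stage 4 was not counted, and the members were read in the same libraries, so they are not independent. Leaving out stage 3 replicate 2 gave 5 calls, all higher, out of 368 among 19199 genes.

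From stage 4 to stage 5, 21 members rose and 2 fell, where 7.66% of all genes tested rose and 10.8% fell, and 10.4% and 10.7% of the other qualifying genes. The median log2 change was 0.30 over the members and -0.0043 over all genes. Equal total reads gave 18 rises and 6 falls, out of 3744 calls over all genes. Without stage 4 replicate 1 there were 12 rises and 1 fall, and without replicate 2 there were 11 rises and 0 falls, its lone remaining library taken to vary as other stages do. Quantile normalization gave 13 rises and 2 falls, and the term for title code letters 13 and 1, out of 2183 and 2583 calls over all genes.

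The largest rise at this last step was in Ro07_G33631, at 2569.6 and 2579.6 normalised counts in stage 4 and 14545, 17029 and 14778 in stage 5 (log2 change 2.58 ± 0.43, adjusted p 0.00126). Its earlier libraries held 781, 1211 and 1067 in stage 1, 117, 441 and 164 in stage 2 and 1159, 2279.9 and 1314 in stage 3. Ro01_G27572 followed, from 919 and 1128 to 5747, 4854 and 7550.2 (log2 change 2.55 ± 0.38, adjusted p 0.000649), after 156, 132 and 240.4 in stage 1 and 36.9, 50.1 and 53.8 in stage 2. For both, the dip preceded a level in stage 5 well above that of stage 1.

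The 2 falls were in Ro06_G24984 and Ro04_G26593. Ro06_G24984 held 721 and 1000.5 normalised counts in stage 4 and 98.9, 44.2 and 304 in stage 5 (log2 change -2.93 ± 0.69, adjusted p 0.0107). It had held 184, 239 and 209.9 in stage 1 and 27.9, 117 and 36.3 in stage 2. Without stage 4 replicate 2 it was not called (-2.70, adjusted p 0.0917), nor with only the libraries of these stages (-2.93, 0.125). Ro04_G26593 went from 13690.3 and 15612 to 4613, 5799.9 and 3238 (log2 change -1.72 ± 0.44, adjusted p 0.0157). It was not called without stage 4 replicate 1 (-1.82, adjusted p 0.0713), stage 4 replicate 2 (-1.63, 0.106) or stage 5 replicate 3 (-1.50, 0.051), nor with the title code letters as a term (-1.52, 0.0635).

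Across the whole course, stage 1 against stage 5, 47 members rose, 12 fell and 41 did not pass the test. Of all genes tested 33.4% rose and 44.8% fell, and of the other qualifying genes 52.6% and 23.2%. Without stage 5 replicate 1 there were 47 rises and 5 falls, out of 14548 calls over all genes. This comparison shares its stage 1 libraries with the stage 1 to stage 3 comparison and its stage 5 libraries with the stage 4 to stage 5 comparison. The median log2 change was 0.83 over the members, against -0.30 over all genes and 0.45 over the other qualifying genes. Quantile normalization gave 44 rises and 22 falls, out of 14318 calls over all genes. Equal total reads gave 25 rises and 39 falls, out of 16275 calls over all genes. The median was then -0.45 over the members and -1.54 over all genes. The excess of rises over falls therefore holds relative to the deposited scaling and turns under equal total reads. The other qualifying genes also had more rises than falls under the deposited scaling, so the excess is not particular to the members. The members' median stayed above that of all genes under each scaling, as did that of the other qualifying genes under the deposited one. Qualifying required a mean of at least 100 in each of these stages, which all genes need not meet.

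Ro06_G24862, described above, had the largest rise, with stage means of 611 ± 675 and 38220.1 ± 8143 normalised counts (SD, n = 3, log2 change 6.58 ± 1.03, adjusted p 5.8e-05). Without stage 1 replicate 2 the change was 7.48 and without replicate 3 it was 5.86. DESeq2 gave this gene no adjusted p from stage 1 to stage 3 or from stage 1 to stage 5. Ro06_G15218 followed. Its libraries held 304, 135 and 151 in stage 1, 27.04, 26.7 and 32.4 in stage 2 and 216, 423 and 99.5 in stage 3. They then held 1490.5 and 1799 in stage 4 and 7374, 6228 and 13163 in stage 5 (stage 1 to stage 5, 5.52 ± 0.44, adjusted p 1.18e-07). The largest falls were in Ro04_G08864 (-4.36 ± 0.25, adjusted p 5.95e-09) and Ro04_G25619 (-2.29 ± 0.39, adjusted p 0.000112), the same genes as between stage 1 and stage 3.

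**Figure D5:**
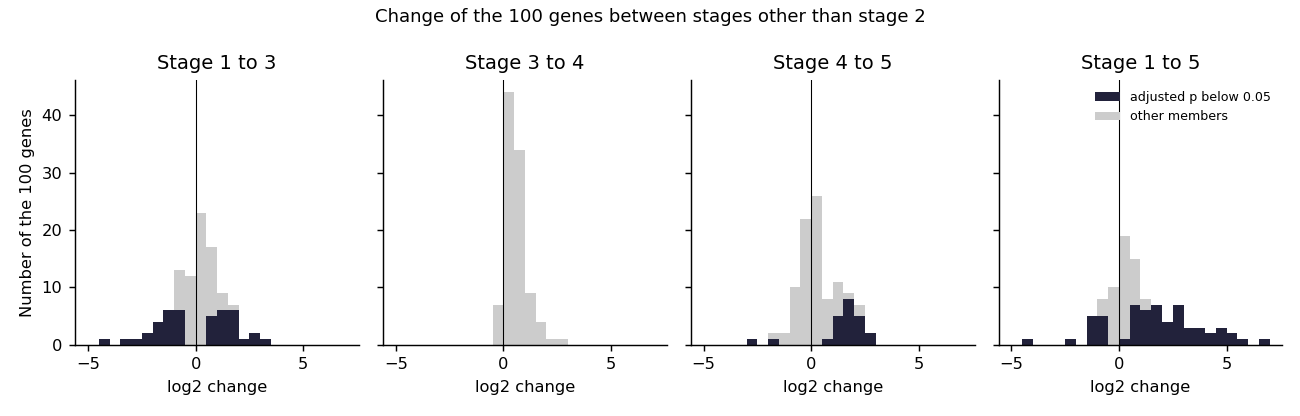
Number of the 100 genes (vertical axis) by log2 change between stages other than stage 2, in 4 panels, with members past an adjusted p of 0.05 in dark and the rest in light grey. Called members lie on both sides of 0 from stage 1 to stage 3 (21 and 21), none are called from stage 3 to stage 4, and rises outnumber falls in the last panels, stage 4 to 5 (21 and 2) and stage 1 to 5 (47 and 12). Of all genes tested, 30.2% rose and 40.9% fell from stage 1 to 3, and 0.0156% were called from stage 3 to 4. From stage 4 to 5 these were 7.66% and 10.8%, and from stage 1 to 5 33.4% and 44.8%.

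The F test over stages 1, 3, 4 and 5 called 67 members as changing outside stage 2, against 82.6% of all genes tested and 82.1% of the other qualifying genes. The other 33 did not pass, which does not show that their levels were equal. Measured by stage means, 31 members stayed within 2-fold over stages 1, 3, 4 and 5, and the share among other genes was not counted. The F test drew each gene's spread from all 14 libraries, stage 2 included. With only the libraries of stages 1, 3, 4 and 5, 82 members were called, out of 15542 calls among 19234 genes. Without stage 2 replicate 2 there were 80, out of 15795 among 19172. The lower share of member calls is therefore relative to the use of the stage 2 libraries. The part of the members' larger spread between replicates, given above, was not tested.

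The members with the highest F test p, and so the flattest course around the dip by this test, were Ro03_G31985 (adjusted p 0.93) and Ro01_G01261 (0.916). Ro03_G31985 held 121, 205 and 129 normalised counts in stage 1, 19.7, 88.6 and 32.03 in stage 2 and 140.1, 76.9 and 158 in stage 3. Stage 4 held 99.2 and 163 and stage 5 126, 171 and 115. Its stage 2 replicate 2 lay above 1 stage 3 library, so the stages overlapped. Ro01_G01261 held 2107, 2969 and 2371 in stage 1 and 670.5, 1333 and 755 in stage 2, and its later stage means were 2313 ± 559, 2669.9 ± 905 and 2327 ± 579 (SD, n = 3, 2 and 3). All its stage 2 libraries were below all others.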

How the data were processed

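The members, the rule that chose them and the tests were set with earlier results of these data known. The deposited values are a normalised signal: per the submitters' processing notes, which name Trimmomatic, HISAT2 and DESeq2 without versions, the authors divided each gene's reads by 1 size factor per library. Per the labels' protocols, poly(A) RNA with an integrity number of at least 8 went into a stranded kit. For the read counter, genome build and annotation, nothing is given in the sources used here. Within each library 100% of values were whole multiples of the smallest value to within 0.01 read, which gave back whole reads (0.362 to 3.14 reads per unit).

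The main test was limma 3.58.1 (R 4.3.3) on log2 values after adding 1 to each normalised count, with a trend in the prior variance, all 14 libraries in 1 model, two-sided, and Benjamini-Hochberg adjustment over 19234 genes. Fold changes on this scale understate those of low genes. Recovered reads were also tested with edgeR 4.0.16 (quasi-likelihood) and DESeq2 1.42.0, and the procedure was tested on simulated data. Genes named are the extremes of the score, of the mean level, of the F test and of each contrast (2 rises and 2 falls among called members whose libraries do not overlap). Replicate numbers come from the titles, which for stage 4 say 1 and 2 where the library names end in 2 and 3. Libraries of the same number correlated in their deviations from stage means at -0.09 to 0.39 (median 0.06), over 0.1 in 9 of 26 pairs. Those of different numbers correlated at -0.37 to 0.14 (median -0.04), over 0.1 in 4 of 52 pairs. The main model had no term for the replicate number, and a replicate block was fitted as another setting. Other settings were pseudocounts, filters, scalings, prior variance, only the libraries of the stages compared, and leaving out each library. A term for library names ending in br1 and a term for the opening letters of the title codes were also fitted.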

Additional observations from a re-analysis of the deposited data

How the results depend on the processing

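Leaving out each library in turn gave 31 to 55 member calls from stage 1 to stage 3 (42 with all), 0 to 5 from stage 3 to stage 4 (0), 11 to 29 from stage 4 to stage 5 (23), 52 to 67 from stage 1 to stage 5 (59) and 61 to 80 by the F test over stages 1, 3, 4 and 5 (67). It gave 86 to 98 calls of a fall into stage 2 (93) and 96 to 99 of a rise out of it (99). With stage 2 replicate 2 left out these were 55, 0, 29, 67, 80, 98 and 99. Calls over all genes, rises and falls together, were then 13564, 6, 3666, 14975, 15795, 7106 and 9415 of 19172. In the main fit they were 13672, 3, 3548, 15041, 15884, 8233 and 10058 of 19234. With a replicate block the member calls were 45, 0, 28, 61, 72, 97 and 99, and 11 of 14 libraries correlated best with their own number on average. That block gave 13910, 0, 3972, 15211, 16166, 8637 and 10465 calls over all genes. By edgeR the member calls were 42, 0, 25, 59, 71, 91 and 98, out of 13748, 2, 3204, 15135, 15948, 8965 and 10246 calls over all genes. The title code letters as a term gave 26 from stage 1 to stage 3 and 14 at the last step, quantile normalization 15 at the last step, and DESeq2 6 from stage 3 to stage 4 (1 member without an adjusted p). The cause of these moves was not tested. The remaining settings kept each total within 1.5 times, which does not hold for rises and falls taken singly: those that moved further are given with each comparison, apart from the falls at the last step (2), which were 5 without stage 2 replicate 2 and 1 without stage 5 replicate 3.

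Applied again, the rule kept 81 to 98 of the 100 members when 1 library was left out and 64 with equal total reads, where 93 members still passed 0.3. With other added values, floors, averages or scalings it kept 72 to 99. Chosen after seeing the data, libraries with YH title codes alone kept 92, and stage 2 replicate 2 alone for stage 2 kept 68. No named change turned its sign. At 16 recovered reads, the lowest member in stage 2 replicate 2 limits precision there.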

Other observations

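Dips of this kind were more frequent at stage 2 than at the other inner stages. By the same scoring, 588 of 9406 qualifying genes (6.25%) passed 0.3 at stage 2, 50 of 9336 (0.54%) at stage 3 and 195 of 9399 (2.07%) at stage 4. A score above 1 was reached by 118, 0 and 3 genes. Stages 3 and 4 are close in their levels, which limits how far either can dip below the other. At the end stages, where a low level need not be a dip, 29.8% of qualifying genes passed 0.3 at stage 1 and 12.1% at stage 5. Peaks above 0.3 among the genes qualifying for each stage numbered 475 at stage 2, 55 at stage 3 and 455 at stage 4.

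The identifiers of the 100 members opened with Ro04 in 23 genes, Ro03 in 19, Ro02 in 17, Ro06 in 14, Ro01 in 10, Ro07 in 9 and Ro05 in 8. Of all qualifying genes 13.3% opened with Ro04, so 1.84% of those were members, against 0.61% of those that opened with Ro05. In 4 pairs of members the identifiers were within 2 numbers of each other, named here after their values were seen. These were Ro02_G35246 and Ro02_G35247, Ro03_G15666 and Ro03_G15668, Ro03_G16017 and Ro03_G16018, and Ro03_G18113 and Ro03_G18115. Mean levels within a pair differed by 2.95-fold, 5.53-fold, 11.2-fold and 7.80-fold, and whether reads are shared between copies was not tested.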
